A study of Mus musculus with 6 samples.

Results

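Cytochrome P450 genes encode haem enzymes that insert 1 atom of oxygen into lipids, steroids, vitamins, drugs and other small molecules. On the array used here they were taken as every gene whose symbol begins with Cyp, a family number and a subfamily letter. That rule found 96 of 31829 gene names, carried by 119 of 39429 probes. A gene whose symbol lacks the subfamily letter, such as Cyp51, is not matched by it and is described with the partner genes.

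The enzymes sit in the endoplasmic reticulum or the mitochondrion and draw electrons from a reductase or, in the mitochondrion, from ferredoxin. Some members have 1 physiological task, such as breaking down retinoic acid, activating vitamin D or building bile acids and steroid hormones. Others, mostly of the larger families, oxidise fatty acids, eicosanoids and foreign compounds, and are best known from liver. In islets the retinoic acid, fatty acid and vitamin D branches touch pathways that act on beta cells.

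The study asked what changes in mature islets when Nkx6.1, a transcription factor of beta cells, is lost. All mice were male, 6 weeks old, and carried a floxed Nkx6.1 allele and the Pdx1-CreERTM transgene on a mixed background of FVB/N, C57Bl/6J and Cd1. All received tamoxifen, 2 mg per 25 g, in 4 injections starting from 4 weeks of age. Controls were Nkx6.1fl/+;Pdx1-CreERTM, so their recombined cells keep 1 wild-type allele. Mutants were Nkx6.1fl/-;Pdx1-CreERTM littermates, whose second allele is null in every cell and was so before tamoxifen. The Pdx1 promoter drives the recombinase in pancreatic cells and is not restricted to mature beta cells. Each of the 3 control and 3 mutant samples, lettered A to C, was RNA from whole islets of 2 pancreata of 1 genotype. In such bulk RNA, fewer cells of a type and less RNA per cell cannot be told apart.

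Labelled RNA was read on single-colour Agilent arrays, 1 array a sample. A value below is the log2 background-corrected signal minus the array's 75th percentile, called the normalized log2 signal, and a difference is mutant minus control. A probe counts as above background where the scanner software called it well above background, and a gene was tested where its probe was so on all arrays of at least 1 group. The 8 beta cell, 7 alpha cell, 4 delta cell and 2 PP cell markers were all above background on all 6 arrays. The Nkx6-1 probe, whose place relative to the floxed part is not given by the files, differed by -0.48 (limma adjusted p = 0.131), with all 3 mutant arrays below all 3 controls. The lowest signals of mutants A and B were 7.98 and 6.85 intensity units, against 2.31 to 3.31 on the other 4 arrays, and those 2 arrays had the fewest probes above background.

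A smaller share of P450 genes than of all genes was detected in these islets, and mutants A and B detected fewer of them than any control. Of the 96 genes, 41 (42.7%) had a probe above background on all 6 arrays, against 62.2% of all gene names. For 25 genes (26.0%) no array showed signal above background, against 19.8% of all gene names. All 3 control arrays detected 56 P450 genes and all 3 mutant arrays detected 41, so 15 genes (15.6%, against 9.15% of all gene names) were above background on every control array but on fewer mutant arrays. The reverse pattern was found for 0 P450 genes and for 58 of all gene names (0.182%).

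**Figure D1:**
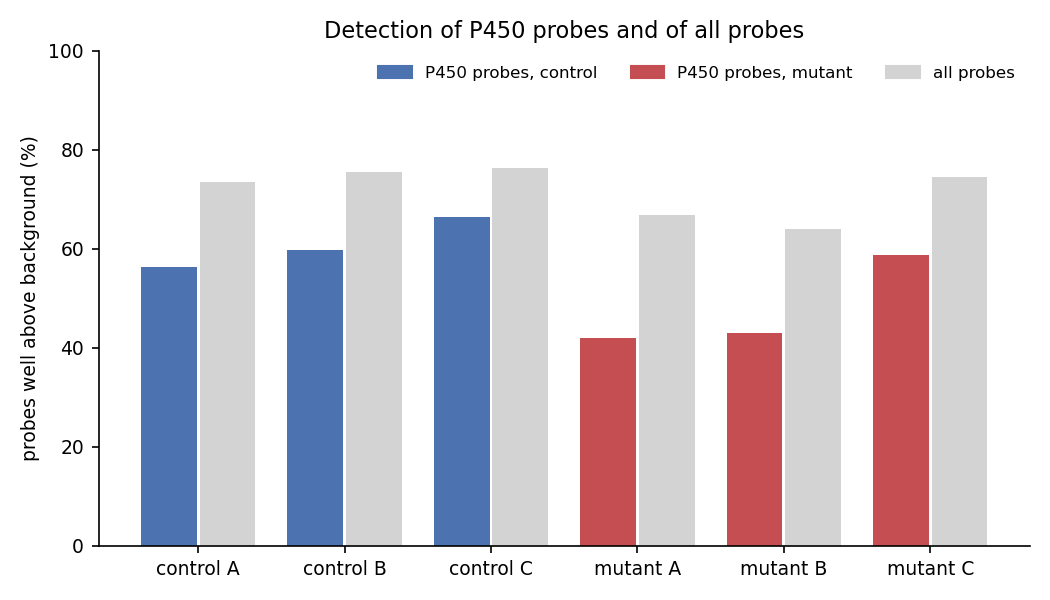
Share of probes well above background (vertical axis, percent) on each array, for the 119 P450 probes (coloured bars) and for all 39429 probes (grey bars). P450 probes lie below all probes on each array, and mutants A and B have the lowest shares, at 42.0% and 42.9% of P450 probes.

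Counted by array, 67, 71 and 79 of the 119 P450 probes were above background in controls A, B and C, and 50, 51 and 70 in mutants A, B and C. Over all probes the shares were 73.4% to 76.3% in controls and 66.8%, 63.9% and 74.4% in mutants A, B and C, so mutants A and B were lowest there too. The part of the higher floor of those 2 arrays in the P450 counts was not tested. Several well-known members were above background on no array, among them Cyp7a1 and Cyp8b1 of bile acid synthesis, Cyp11a1, which starts steroid hormone synthesis, Cyp26a1 and Cyp26c1 of retinoic acid breakdown, and Cyp1a2 of drug oxidation in liver. Of 8 hepatocyte markers, 3 (Apoa1, Apoh and Serpina1b) were not tested because of low signal, and 0 of the 5 others were called.

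Among the 56 P450 genes tested, 1 changed: Cyp4f39 fell, and 0 rose. Calls are at a limma adjusted p under 0.05, with the adjustment over all 22775 genes tested. In the background 576 genes (2.53%) were called, 320 (1.41%) higher and 256 (1.12%) lower. The 3 mutant arrays did not overlap the 3 control arrays for 14 P450 genes (25.0%), 8 higher and 6 lower, while this held for 26.3% of all genes, 12.3% higher and 14.0% lower. An unadjusted limma p under 0.05 was found for 13 of the 56, and for 20.2% of all genes. The share of P450 genes with groups apart lay near the background. Differences ranged from -2.94 to 2.97, and 44 of the 56 lay within 0.5 of 0. The median was -0.11, against -0.03 over all genes, and it was 0.06 with normexp background correction and 0.04 over the 41 genes above background on all 6 arrays. It stayed negative with normexp and quantile normalization together and on the deposited equalized values (-0.0419 and -0.0397), so the family had no sign that held in all settings.

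**Figure D2:**
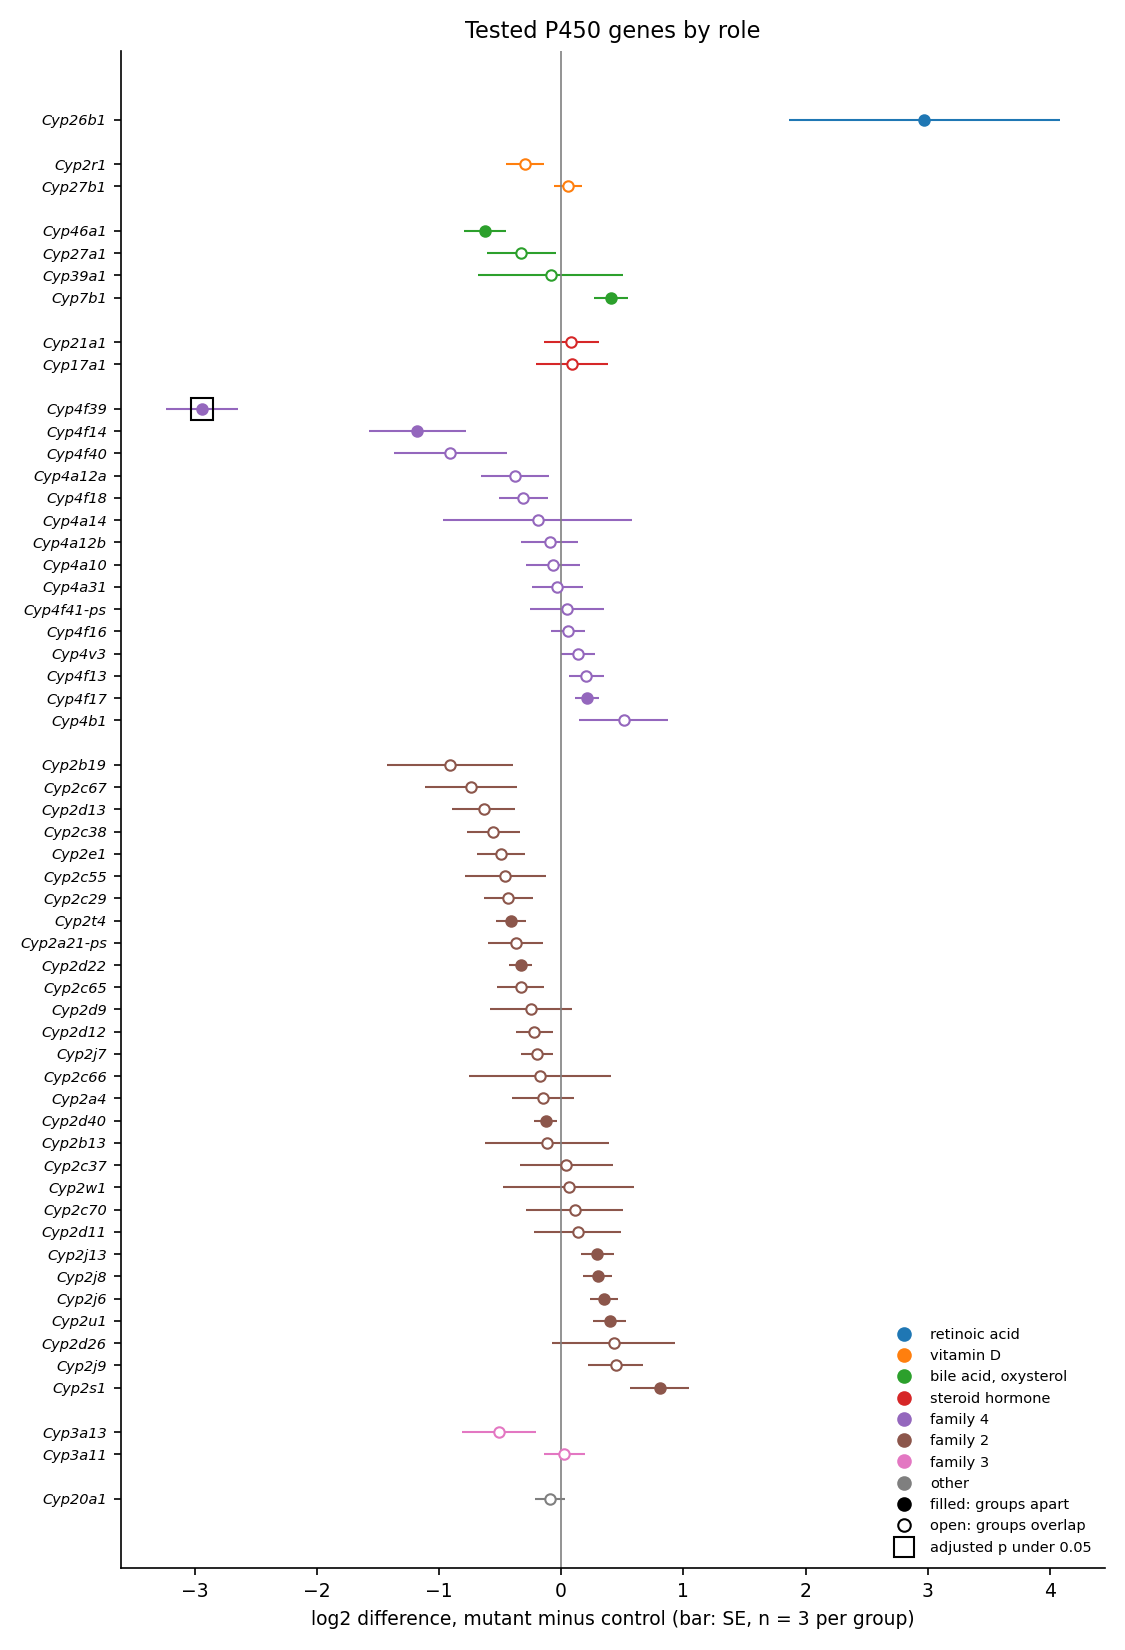
Log2 difference, mutant minus control (horizontal axis), of each of the 56 tested P450 genes, grouped by role, with bars of 1 standard error (n = 3 per group). Most points lie near 0, Cyp26b1 (2.97) and Cyp4f39 (-2.94) stand at the ends, and only Cyp4f39 carries the square that marks an adjusted p under 0.05.

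The short stretches that follow are the first 30 of the 60 bases of the probes behind the values the account turns on, with coordinates of the whole probe on mm9 as the files give them. They identify the array positions. The files do not say in which exon or part of a transcript a probe lies, and the probes were not aligned to a genome here.
Cyp4f39, chr17:32629616-32629675, plus strand: acaagactccacccttgggatttgattcca
Cyp4f14, chr17:33042214-33042273, minus strand: gactattctctgaacaacataggaagccaa
Cyp4f17, chr17:32665243-32665302, plus strand: acccagaaaacccacagaagaggtctcctc
Cyp26b1, chr6:84521952-84522011, minus strand: gttcgtgtgtctcgttgtggtagcattaat
The closest match of the Cyp4f39 probe to the probe of any other P450 gene had 24 of 60 bases in common. Probes were compared with probes and not with whole transcripts, so this cannot show that the probe reads Cyp4f39 alone. Over 6994 pairs of probes of different P450 genes, 2 pairs shared at least 54 bases (Cyp2c67 with Cyp2c68, and Cyp4a10 with Cyp4a31). In 0 of them were both probes tested. Just under that limit, the probes of Cyp2a21-ps and Cyp2a4 shared 52 bases, and both were tested.

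Retinoic acid breakdown is the task of the 3 Cyp26 enzymes, and only Cyp26b1 was tested. Its normalized log2 signals were -5.33, -5.81 and -5.39 in controls A, B and C and -4.87, -2.57 and -0.17 in mutants A, B and C. All 3 mutant arrays stood above all 3 controls, but mutant A lay close to the controls and mutant C far from the rest. The means were -5.51 ± 0.26 and -2.54 ± 2.35 (SD, n = 3), 7.84-fold apart, and the difference of 2.97 (SE 1.11) was not called (limma adjusted p = 0.214). It was 2.35 with the slide as a block (adjusted p = 0.263 by limma), 3.96 within slide 1 and 0.73 within slide 2. Slide 1 held mutants B and C with control A, and slide 2 held mutant A with controls B and C. Without mutant C the difference was 1.79, and with mutant C alone against the 3 controls it was 5.34.

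Genes of the wider retinoid pathway gave values on the same arrays. Aldh1a3, which makes retinoic acid from retinal, was 1.62, 3.08 and 3.97 above its control mean in mutants A, B and C. Its difference of 2.89 (SE 0.57) was not called (limma adjusted p = 0.0637). Rbp4, a carrier of retinol, differed by 1.30 (limma adjusted p = 0.093), and Rarb, a retinoic acid receptor and textbook target of the acid, by 0.94 (limma adjusted p = 0.106). Each of these 3 genes had all 3 mutant arrays above all 3 controls. The reverse held for Aldh1a2, which also makes retinoic acid (-0.29, limma adjusted p = 0.24), the receptor Rara (-0.26, limma adjusted p = 0.269) and the retinal reductase Rdh11 (-0.27, limma adjusted p = 0.22), none of them called. Adh1, an alcohol dehydrogenase that can oxidise retinol, fell from 4.20 ± 0.05 to 3.28 ± 0.16 (SD, n = 3), a difference of -0.93 (SE 0.12, limma adjusted p = 0.0254). Over the whole retinoid list, 14 of 18 genes were tested, 1 fell, 0 rose, and 8 (57.1%, against 26.3% of all genes) had groups that did not overlap, 4 higher and 4 lower. The median of the list was -0.14, and 8 of its 14 differences were negative. The call of Adh1 was lost without any 1 of the 6 arrays, with adjusted p of 0.0504 to 0.123 in limma.

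**Figure D3:**
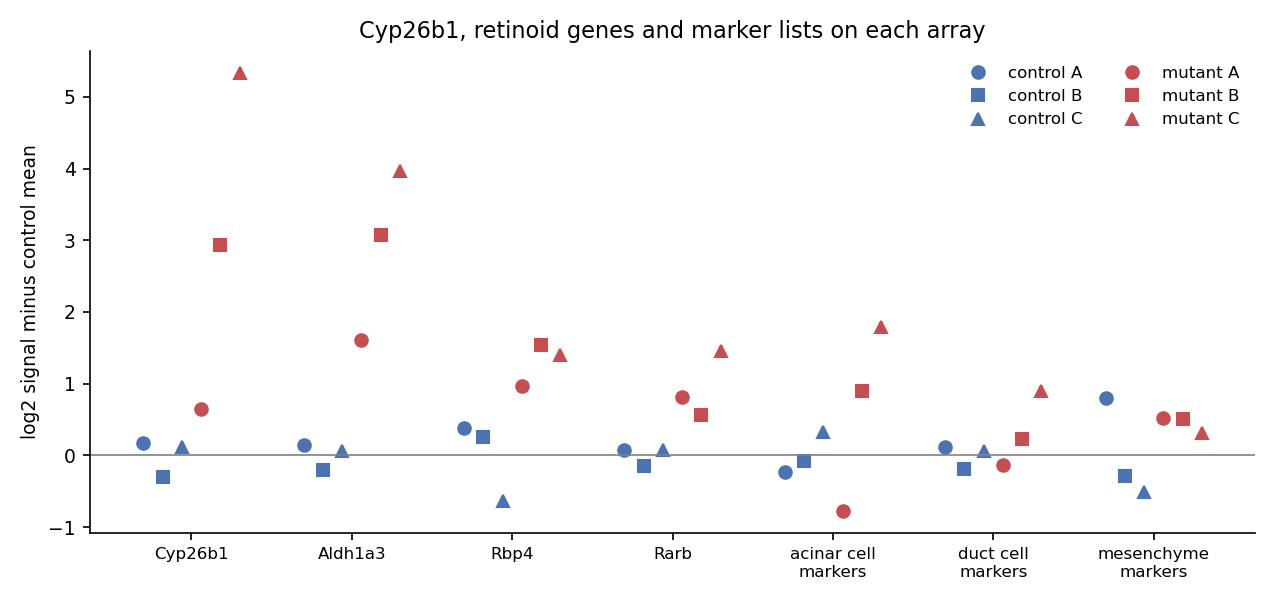
Log2 signal minus the control mean (vertical axis) on each array, with controls in blue and mutants in red. Shown are Cyp26b1, 3 retinoid genes and the mean of 3 lists of marker genes. The 3 retinoid genes shown were all higher in mutants and not called. Retinoid genes that were lower, the called Adh1 among them, are not shown. Over the retinoid list, groups were apart for 4 higher and 4 lower genes. Cyp26b1 spreads from 0.64 to 5.34 in the mutants, and mutant C, the highest for Cyp26b1, is also the highest for the acinar list at 1.79.

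Markers of acinar cells, the enzyme-secreting cells around islets, were above every control on mutants B and C, as Cyp26b1 was, and below every control on mutant A, where Cyp26b1 was above. Relative to the control mean, the acinar list was at -0.77, 0.90 and 1.79 in mutants A, B and C and between -0.24 and 0.32 in controls. Of its 21 genes, 20 were tested, 0 were called, and Amy2b was not tested. The summed signal of the list was 10.8 to 11.2 in controls and 10.3 to 12.3 in mutants on the log2 scale. The 8 duct markers, all tested with 0 called, were at -0.13, 0.23 and 0.90 in mutants A, B and C, with summed signals of 3.76 to 4.29 in controls and 3.47 to 6.15 in mutants. The mesenchyme and stellate list (11 of 12 genes tested, 0 called, Pdgfra not tested) was at 0.52, 0.51 and 0.31 in mutants and -0.51 to 0.80 in controls, with sums of 2.43 to 3.77 and 3.27 to 3.53. The part of these cells in the Cyp26b1 signal was not tested.

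Vitamin D is hydroxylated first by Cyp2r1, then activated by Cyp27b1 and broken down by Cyp24a1. Cyp2r1 gave 4.49, 4.20 and 4.33 in controls and 3.79, 4.26 and 4.08 in mutants A, B and C, a difference of -0.30 (SE 0.16, limma adjusted p = 0.352). The groups overlapped, and another probe of Cyp2r1, above background on 3 controls and 1 mutant, differed by 0.36, the opposite sign. Cyp27b1 differed by 0.06, and Cyp24a1 was above background on 2 controls and 1 mutant and was not tested. The receptor that reads the hormone did change: Vdr fell from 3.47 ± 0.15 to 2.19 ± 0.23 (SD, n = 3), a difference of -1.29 (SE 0.16, limma adjusted p = 0.024). On Vdr the mutant arrays A, B and C read 2.46, 2.07 and 2.03 and no control read below 3.31. The call held with the slide as a block (adjusted p = 0.0157 in limma) and was lost without control B, control C, mutant B or mutant C (limma adjusted p = 0.113, 0.12, 0.105 and 0.067).

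Bile acids and oxysterols are made by 6 members, of which 4 were tested and 0 called. Cyp46a1, the cholesterol hydroxylase best known from neurons, read -1.60, -1.97 and -1.81 in controls and -2.40, -2.17 and -2.68 in mutants A, B and C. The mutant arrays were all lower, and the difference of -0.62 (SE 0.17) was not called (limma adjusted p = 0.123). Cyp7b1, which hydroxylates oxysterols, differed the other way by 0.41 (SE 0.14, limma adjusted p = 0.179), again with groups apart. Cyp39a1, an oxysterol hydroxylase, had the widest control spread of the 4, from -0.50 to 1.44, and a difference of -0.09 (SE 0.59, limma adjusted p = 0.947). Cyp27a1, the mitochondrial sterol hydroxylase, was above background on all 3 controls and on 0 mutants, yet its signals of -6.89 to -6.45 in controls and -7.58 to -6.55 in mutants overlapped. Its difference was -0.33 (limma adjusted p = 0.558), and no fold is given because the control mean of -6.74 lay below the mean bound of the mutant arrays, taken on each array as its lowest probe signal above background or the probe's own signal where higher.

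Steroid hormone synthesis had 2 of 6 members tested and 0 called. Cyp17a1, which leads from progestogens to androgens, read 2.52, 2.11 and 2.39 in controls and 1.91, 2.36 and 3.03 in mutants A, B and C. The groups overlapped, and the difference of 0.09 (SE 0.29, limma adjusted p = 0.882) turned to -0.08 with the slide as a block. Cyp21a1, the steroid hydroxylase of glucocorticoid synthesis, differed by 0.08, and its other probe was above background on no array. Cyp19a1, aromatase, was above background on 2 controls and 1 mutant, Cyp11b1 on 1 control, and Cyp11b2 on no array.

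Family 4 hydroxylates fatty acids and eicosanoids at the end of the chain, and 15 of its 20 genes were tested. Cyp4f39, which is known for hydroxylating very long fatty acids for the lipid barrier of skin, read -2.38, -2.0 and -2.06 in controls A, B and C. In mutants A, B and C it read -4.46, -5.23 and -5.56, so the groups lay apart with a wide gap. It was above background on all 6 arrays. The means were -2.15 ± 0.21 and -5.09 ± 0.56 (SD, n = 3), 7.66-fold lower in mutants, and the difference was -2.94 (SE 0.29, limma adjusted p = 0.0162). It was -2.72 with the slide as a block (limma adjusted p = 0.0157), -3.01 within slide 1 and -2.43 within slide 2. Without control B, control C or mutant B the difference was -2.86, -2.90 and -2.87 and no longer called (limma adjusted p = 0.0856, 0.0842 and 0.0873), in fits that called 13, 21 and 20 of all genes. With normexp background correction it was -1.95 and on the deposited equalized values -2.03, smaller differences that were still called (limma adjusted p = 0.00344 and 0.00399). On the same arrays the mean of the 8 beta cell markers was -0.54, -0.57 and -0.56 relative to the control mean in mutants A, B and C, with 2 of the 8 called, and -0.07 to 0.12 in controls. The summed beta cell signal was 9.41 to 9.90 in controls and 9.27 to 10.01 in mutants. For the 4 delta cell markers (0 called, Rbp4 among them) the mean was 0.42, 0.70 and 0.88 in mutants. In controls it was -0.53 to 0.37, and the summed delta cell signals overlapped (7.67 to 8.44 in controls, 8.29 to 8.83 in mutants). The 9 tested leukocyte and macrophage markers (0 called) had summed signals of 5.20 to 5.45 in controls and 4.74 to 4.99 in mutants. Their mean was 0.05, -0.43 and -0.20 in mutants A, B and C and -0.27 to 0.50 in controls, so the means overlapped. The part of these marker values in the falls of Cyp4f39, Vdr and Adh1 was not tested.

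**Figure D4:**
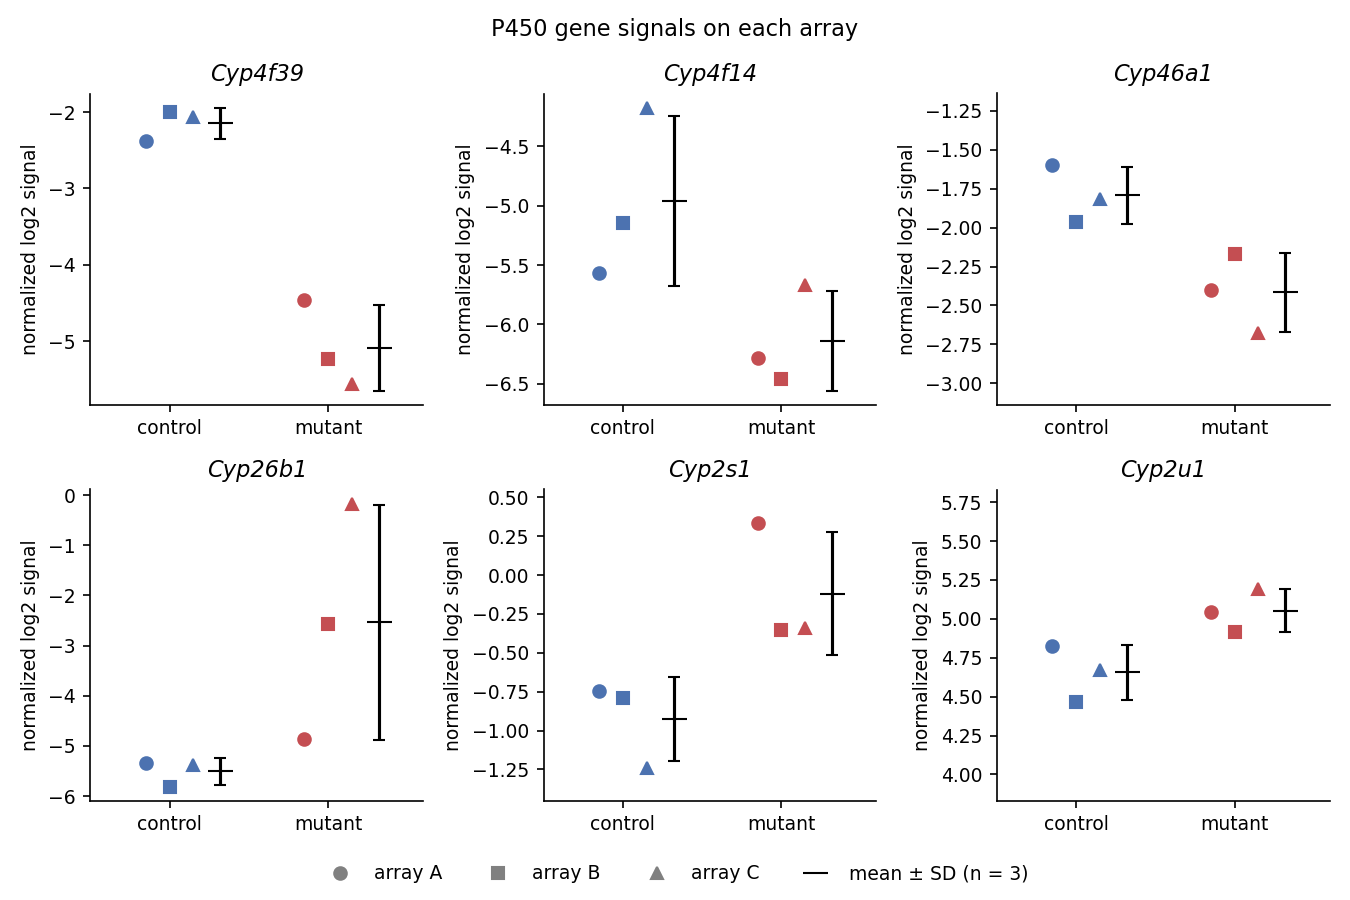
Normalized log2 signal (vertical axes, each gene on its own scale) on each array for 6 P450 genes, with the mean and SD of the 3 arrays of a group beside the points. Cyp4f39 shows the groups apart by more than the spread within either, while for Cyp26b1 the 3 mutant arrays spread from -4.87 to -0.17.

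Cyp4f14, which acts on leukotriene, read -5.57, -5.15 and -4.17 in controls and -6.29, -6.46 and -5.67 in mutants A, B and C. The groups were apart, but only 1 mutant array was above background, and the difference of -1.18 (SE 0.40) was not called (limma adjusted p = 0.18). It was -0.50 within slide 1, -1.63 within slide 2 and -0.24 with normexp. Cyp4f14 and Cyp26b1 were the 2 uncalled members with groups apart and a difference of at least 2-fold. With the called Cyp4f39, 3 of the 56 tested members showed this pattern. Over all genes it was shown by 772 of 22775 (3.39%), called ones included. Cyp4f40, also above background on only 1 mutant array, differed by -0.91 with overlapping groups (limma adjusted p = 0.335). Cyp4f17 differed by 0.21 with all mutant arrays higher (limma adjusted p = 0.306). Cyp4v3, the mouse counterpart of a human gene behind a retinal lipid disease, read 1.59 to 1.96 in controls and 1.84 to 2.06 in mutants, a difference of 0.14 (limma adjusted p = 0.602). The 5 tested Cyp4a genes, targets of the fatty acid receptor Ppara in liver, had overlapping groups and differences of -0.38 to -0.03. Further tested probes of Cyp4a10 differed by -0.79 and -0.60, also with overlapping groups. Cyp4a12a and Cyp4a14 were each above background on 1 mutant array. The probe used for Cyp4a10 had 44 of 60 bases in common with a Cyp4a31 probe.

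The tested Cyp4f genes other than Cyp4f18 have their probes in a cluster on chromosome 17, so the neighbours of Cyp4f39 were read in order. Within 500 kb of its probe 22 genes were tested, 7 of them P450 genes. Only Cyp4f39 was called. Its nearest P450 neighbours, Cyp4f17 and Cyp4f16, lay 35.6 and 58.6 kb away and differed by 0.21 and 0.06. Cyp4f40, Cyp4f14, Cyp4f13 and the pseudogene Cyp4f41-ps lay 183, 413, 433 and 459 kb away and differed by -0.91, -1.18, 0.21 and 0.05. Cyp4f40 and Cyp4f14 were each above background on 3 controls and 1 mutant, so both were tested through the controls alone. With normexp Cyp4f14 was -0.24. The P450 neighbours above background on all 6 arrays, Cyp4f17, Cyp4f16, Cyp4f13 and Cyp4f41-ps, differed by 0.05 to 0.21. Distance from Cyp4f39 did not order the differences. Other genes nearby were named after their values were seen. Pglyrp2 (-0.66, limma adjusted p = 0.169) and Zfp871 (-0.80, limma adjusted p = 0.153) had all mutant arrays lower and were not called. All mutant arrays were lower for 14.0% of all genes. A430107D22Rik differed by 0.57 with overlapping groups (limma adjusted p = 0.337).

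**Figure D5:**
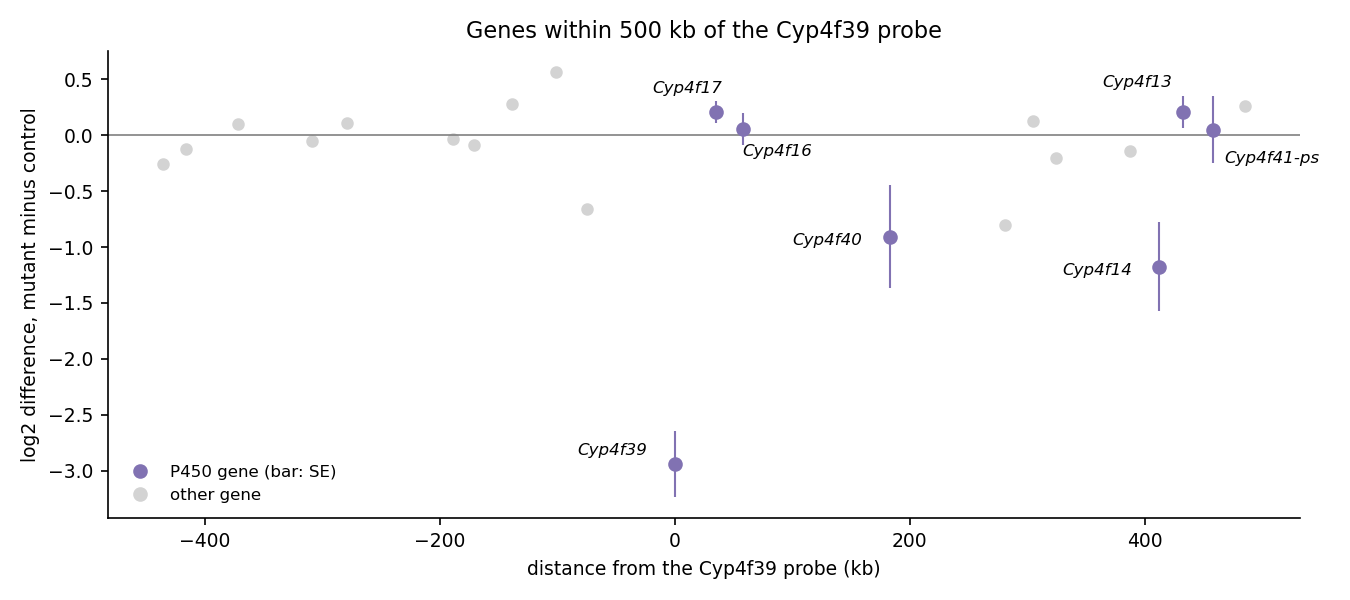
Log2 difference, mutant minus control (vertical axis), of the 22 tested genes within 500 kb of the Cyp4f39 probe against distance from it in kb (horizontal axis). Purple points with bars of 1 standard error are the 7 P450 genes. Cyp4f39 at -2.94 lies far below its neighbours, of which the lowest is Cyp4f14 at -1.18. Cyp4f14 and Cyp4f40 were each above background on 1 mutant array.

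The 250 bases before the start of Cyp4f39 are shown because it is the 1 gene of the family that was called. They come from RefSeq on GRCm38.p6, a different build from the mm9 of the probes, at chr17:32452473-32452722 on the plus strand, and capitals mark the 2 matches to GCGTG or its reverse complement, the core letters read by the aryl hydrocarbon receptor.
Cyp4f39: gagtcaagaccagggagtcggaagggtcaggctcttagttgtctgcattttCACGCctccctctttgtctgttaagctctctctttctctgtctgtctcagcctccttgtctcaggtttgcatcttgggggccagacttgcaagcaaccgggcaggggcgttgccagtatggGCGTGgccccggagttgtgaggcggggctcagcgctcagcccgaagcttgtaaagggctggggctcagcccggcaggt
Searched on both strands, the homeodomain core TAAT had 0 matches in this window. Of 32851 RefSeq windows of the same 250 bases before a start, 54.9% held TAAT, 4.84% TAATTA, 2.78% TTAATTA and 28.2% GCGTG, the shorter homeodomain letters being part of the longer ones. RefSeq gave 80 such windows for 70 of the 96 P450 genes, and 49 (61.3%), 6 (7.5%), 2 (2.5%) and 15 (18.8%) held the same letters. These are matches of letters, not sites shown to be bound.

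Family 2, the largest, oxidises drugs and fatty acids, and 29 of its 46 genes were tested. None was called. Groups were apart for 8 (27.6%, against 26.3% of all genes), 5 higher and 3 lower, and 8 of the 29 had an unadjusted limma p under 0.05, as 20.2% of all genes did. Cyp2s1, an enzyme of epithelia outside the liver, read -0.74, -0.79 and -1.24 in controls and 0.34, -0.36 and -0.34 in mutants A, B and C. All mutants were higher, and the difference of 0.80 (SE 0.24) was not called (limma adjusted p = 0.145). It was 0.40 within slide 1 and 1.35 within slide 2.

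Cyp2u1, a fatty acid hydroxylase, read 4.82, 4.47 and 4.67 in controls and 5.04, 4.92 and 5.19 in mutants, again apart, with a difference of 0.40 (SE 0.14, limma adjusted p = 0.189). Its other tested probe differed by -0.16 with all mutants lower, and the accession of the probe used matched no gene in RefSeq, so the direction for the gene is not settled. In subfamily 2J, Cyp2j6 (0.35), Cyp2j8 (0.30) and Cyp2j13 (0.30), which make epoxides of arachidonic acid or are close copies of such genes, had all mutants higher (limma adjusted p = 0.166, 0.231 and 0.287). Cyp2j9 (0.45) and Cyp2j7 (-0.20) overlapped, and a further probe of Cyp2j13 differed by -0.40. The further probe of Cyp2j6 differed by 0.23 with all mutants higher. Cyp2j8 and Cyp2j13 each had another probe that was above background on no array. On the lower side, Cyp2t4 (-0.41), Cyp2d22 (-0.33) and Cyp2d40 (-0.13) had all mutants below all controls (limma adjusted p = 0.141, 0.125 and 0.496). Cyp2e1, the ethanol-oxidising member, differed by -0.49 with overlapping groups (limma adjusted p = 0.243). Cyp2c29, above background on 3 controls and 0 mutants, read -7.01 to -6.46 and -7.44 to -6.91, a difference of -0.43 (limma adjusted p = 0.303) that was 0.09 with normexp.

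Family 3, the main drug-oxidising family of liver, had 2 of 8 genes tested and 0 called. For Cyp3a13 the array holds 2 tested probes that disagreed, so both are shown by their first 30 bases, mm9, minus strand.
Cyp3a13 probe 1, chr5:138335412-138335471: cctgtggaccagaaaccaattcatattgtg
Cyp3a13 probe 2, chr5:138334265-138334324: ctagttccacccatttacctgcaaaattca
Probe 1 differed by 0.57 and probe 2, the one used because its mean signal was higher, by -0.51 (SE 0.30, limma adjusted p = 0.4), a spread of 1.08 between probes. Groups overlapped for both, so no direction is given for the gene. Cyp3a11 differed by 0.03. Of family 1, induced through the aryl hydrocarbon receptor, 0 of 3 genes were tested: Cyp1b1 was above background on 2 arrays of each group, Cyp1a1 on 1 control and Cyp1a2 on none. Cyp20a1, a member without a settled substrate, differed by -0.09 (limma adjusted p = 0.713).

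The 40 untested P450 genes were above background on all arrays of neither group. The 54 P450 probes that were not tested, some of them on genes tested through another probe, had a median difference of 0.85, and 45 were higher in mutants. The same held for all 11068 untested probes, with a median of 0.76 and 8539 higher, and with normexp the medians were 0.15 and 0.16. No difference of an untested P450 gene is therefore given as a change.

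Genes that serve or regulate P450 enzymes were counted over 8 lists. Of 109 genes on the array 97 were tested. Of these 2 fell (Vdr and Adh1, above) and 0 rose, while 2.53% of all genes were called, 1.41% higher and 1.12% lower. Groups were apart for 33 (34.0%, against 26.3% of all genes), and the median difference was -0.05. Among the 9 electron donors and helpers 0 were called. Por, the reductase that feeds the enzymes of the endoplasmic reticulum, differed by 0.10 (limma adjusted p = 0.625), Fdx1 and Fdxr of the mitochondrial chain by 0.16 and -0.10. The largest differences of that list were -0.31 for Cyb5b, a cytochrome b5 of the mitochondrial surface, and 0.30 for Pgrmc1, a haem protein that binds P450 enzymes.

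Of the 13 haem genes 0 were called. Hmox1, which breaks down haem, differed by -0.75 (limma adjusted p = 0.0918) with all mutants lower, and Alas2, a first-step enzyme of red cell haem synthesis, by 0.48 (limma adjusted p = 0.526). Of 19 regulating receptors 18 were tested and Vdr alone was called. Ahr differed by 0.02. The 3 P450 genes named outside the Cyp pattern were all tested with 0 called: Ptgis, prostacyclin synthase, by 0.67 (limma adjusted p = 0.307), Cyp51 of cholesterol synthesis by -0.26 (limma adjusted p = 0.413), and Tbxas1, thromboxane synthase, by -0.07. In the epoxide and eicosanoid list 10 of 12 genes were tested and 0 called, with the largest differences for Alox5, which starts leukotriene synthesis (0.40, limma adjusted p = 0.556), and Ephx1, an epoxide hydrolase (-0.33, limma adjusted p = 0.211).

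Steroid and sterol partners had 16 of 19 genes tested and 0 called. Soat1, which esterifies cholesterol, differed by 0.74 (limma adjusted p = 0.0573) with groups apart, and Hsd11b1, which reactivates glucocorticoids, by 0.52 (limma adjusted p = 0.37). The list of conjugation enzymes, which act after P450 oxidation, also held flavin monooxygenases and the quinone reductase Nqo1, which are not conjugation enzymes. Of its 16 genes on the array, 14 were tested and 0 called. Here 11 of the 14 differences were negative, as were 12155 of 22775 over all genes. The median was -0.49, against -0.03 over all genes. Groups were apart for 6 (42.9%, against 26.3% of all genes), 2 higher and 4 lower. The 2 higher were Gstp1 (0.74, limma adjusted p = 0.168) and Gstt1 (0.45, limma adjusted p = 0.211). Sult1c2, a sulphotransferase, read 0.49 to 1.27 in controls and -1.01 to -0.24 in mutants, a difference of -1.50 (limma adjusted p = 0.0637), called under 4 other settings at the same limit. Fmo1, a flavin monooxygenase, differed by -1.38 (limma adjusted p = 0.102) with groups apart.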

How the data were processed

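Labelled RNA (150 ng a sample, Cy3) of 3 control and 3 mutant islet pools was hybridised, 1 array each. Agilent Feature Extraction 10.7.3.1 is named in the submitters' processing notes. Per the file headers, the deposited spot intensity is corrected for background and for trends within an array, with no scaling between arrays. The deposited flags (other values) mark signal well above background, saturation and outlying spots. A further deposited table holds intensity that the authors equalized between arrays by a method not given in the sources used here, and served as an alternative. Signal over background takes the place of depth, the 75th percentile of the signal was 1622 to 2597 intensity units across arrays, and precision is limited by there being 3 arrays a group.

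Spots of a probe were averaged on the log2 scale and each array's 75th percentile was subtracted. A probe was above background where over 0.5 of its spots were flagged so, and tested where this held on all arrays of at least 1 group. Where a gene name had several tested probes, the one of highest mean signal stood for it. The 2 groups were set against each other in limma, version 3.58.1, under R 4.3.3 (lmFit and eBayes, two-sided, no covariate), with Benjamini-Hochberg adjustment over 22775 genes and a threshold of 0.05. Files were read with the package data.table (1.17.8). The fit was tested on simulated data. Folds compare geometric means. Figures and sequences used matplotlib 3.10.9, Python 3.11.15 and pandas 2.3.3. Array barcodes gave the slide. Accessions of 114 of 119 P450 probes (93 of 96 genes) matched RefSeq on GRCm38.p6, where 1 gene has another symbol. No genome of the probes' build was used here.

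The members, lists and rules were chosen with earlier results of these data known, so no list counts as independent support. By rule, named genes were P450 genes called, uncalled ones with groups apart and at least 2-fold, the gene of highest control mean in each role group, genes whose probes differ by over 1 (log2), those above background in 1 group alone, called partner genes or else the 2 largest differences of a list, and Nkx6-1. Other genes were named after their values were seen: Cyp46a1, Cyp7b1 and the family 2 and 4 genes with groups apart or beside them, Por, Fdx1, Fdxr, Ahr, Tbxas1 and the retinoid genes other than Adh1. So were Gstp1, Gstt1 and Nqo1. Alternatives were normexp (offset 50), quantile normalization, both, median scaling, the equalized table, no filter or a filter on all 6 arrays, outlier spots removed, a block on slide or on replicate letter, robust eBayes with a trend in variance, the mean of a gene's probes, every tested probe, an adjusted p under 0.1, each array left out, and, chosen after seeing the data, mutants A and B left out.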

Additional observations from a re-analysis of the deposited data

How the results depend on the processing

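The P450 count of 1 held in 15 of 21 alternatives. Without a filter on dim probes it was 3, with Cyp7a1 and Cyp8b1 added although neither was above background on any array. With a replicate block it was 0 (limma, 8 P450 genes at an unadjusted p under 0.05), and the count over all genes was 0 (3163) and over partner genes 0 (16). No label says that the letters A to C mark pairs, and deviations of same-lettered samples correlated at -0.23, -0.19 and -0.03, so they were not used as pairs. With mutants A and B left out, chosen after seeing the data, mutant C alone stood against 3 controls, its spread was taken to be theirs, and calls lost there say little about stability; the counts were 0 P450 genes (limma, 9 at an unadjusted p under 0.05), 0 of all genes (3864) and 0 partner genes (21). Leaving out 1 array at a time gave 0 to 1 P450 genes, 13 to 418 of all genes and 0 to 2 partner genes; the lowest came without control B, where 8 P450 genes and 18 partner genes had an unadjusted limma p under 0.05. At an adjusted p under 0.1, 1514 genes and 8 partner genes were called. Partner genes called were 4 (Adh1, Aldh1a3, Sult1c2 and Vdr) with normexp and quantile together and with the variance trend.

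Cyp4f39 kept its sign over 21 alternatives, from -3.41 (mutants A and B left out) to -1.95 (normexp; limma adjusted p 0.00344 to 0.129 over all), and lost its call in 5, the replicate block (0.129), the 3 single arrays named in the report, and mutants A and B left out (0.0631). Cyp26b1 ranged from 1.79 to 5.34 and was called in none (limma adjusted p 0.0631 to 0.462). Among the named genes, signs reversed only for genes that were not called. Cyp17a1 was -0.0824 with the slide as a block, -0.02 without control B and -0.21 without mutant C, the lowest of -0.21 to 0.35 with 1 array left out. Cyp20a1 was 0.0068 without mutant C, the highest of a range from -0.15. Cyp39a1 was 0.40 without control A, the highest of a range from -0.57, 0.29 without mutant A and 0.71 without mutants A and B. With the mean of a gene's probes, Cyp2r1 was 0.0294 and Cyp3a13 0.0292. With normexp, Cyp27a1 was 0.15 and Cyp2c29 0.0900. Alas2 was -0.33 without mutants A and B. Except for the probe means, which average probes of opposite sign, the cause was not tested. Low signal limits the 40 untested P450 genes, for which no difference can be given.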
